A study of Arabidopsis thaliana with 4 samples.

Results

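Among 11799 Arabidopsis thaliana genes that the annotation knows only by their locus code, 70 lost most of their signal in inflorescences held for a day in the dark after cutting. They were selected on the measured T0 and T24 values: the lower T0 array exceeded the higher T24 array by at least 2.5 log2 units, with 1 probe set per gene. The rule also leaves out AT4G30650, which passed this gap, and AT5G09300, which missed it. In all, 13356 genes were measured by a probe set of their own. Since these values chose the 70 genes, their fall is a description of the choice and is not tested.

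Signals came from 4 Affymetrix arrays of immature inflorescences on the main bolts of plants of ecotype Ler-0 aged 5 weeks. In the T0 group (2 arrays) the inflorescences were frozen at harvest. The T24 group (2 arrays) lay at 21 °C on wet paper in a black box of 2 L, dark and without supply from the plant, until 24 h had passed. Each time point pooled 10 inflorescences from as many plants, and the texts do not say whether the arrays of a group had separate pools. Cutting, darkness, the wet box and time go together in the comparison and cannot be told apart. In such bulk tissue, fewer cells of a type and less RNA per cell cannot be told apart either.

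Values are log2 signals after RMA, a standard summary of Affymetrix probes, which gives no call of presence or absence. Array medians over all 22746 probe sets lay between 6.08 and 6.29. The correlation across probe sets was 0.954 between the T0 arrays, 0.961 between the T24 arrays and 0.839 to 0.873 across the groups. Markers of late pollen were present, and 3 measured genes known from roots stayed under 5 on every array. Of 6 measured bud and carpel genes, the meristem genes UFO and CLV3 also stayed under 5 on every array. SPT, PTL and SPL stayed above 5 on every array, with SPT at 6.72 and 7.85 at T0 and 7.76 and 8.49 at T24. INO read 5.72 and 6.42 at T0 and 4.97 and 5.65 at T24.

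Among the 70 genes, 12 were placed with the cell wall and 6 with lipids. Pectin-cleaving and glucan-cleaving enzymes remodel the wall of growing cells, lipid transfer proteins and lipases of the GDSL type carry or cut lipids outside the cell, and lectins bind sugars. In anthers, the tapetum, the cell layer around the developing pollen, secretes many such proteins for the pollen wall and coat. The tables used give no product names for these locus codes. The roles below were therefore assigned by hand to 42 of the 70 genes from general knowledge of the Arabidopsis annotation, as background, after the values were known. The other 28 are described without a role. How often such roles occur among all locus code genes is not known here, so no role is called frequent.

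Over the 70 genes the T24 minus T0 change ran from -5.64 to -2.69 with a median of -3.47, while the median over all 11799 locus code genes was 0.00. In linear terms the median gene kept 9.03% of its T0 signal, and the range was 2.00% to 15.5%. Under 10% of the T0 signal remained for 41 genes and under 5% for 11. These shares are approximate where the signal ended near background, and for 8 genes with T24 arrays below the highest of the 3 root genes no fold is given. The 8 are AT1G10640, AT1G06000, AT4G02800, AT5G45700, AT1G06170, AT3G49270, AT3G26960 and AT1G26710. On the whole table, limma called 6.84% of probe sets lower at T24 at an adjusted p under 0.05. Of the 70 genes, 67 were called in that fit, a count that the choice of genes all but fixes. AT5G44400, AT5G62210 and AT1G26710 were not called, and their T0 arrays lay far apart.

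**Figure D1:**
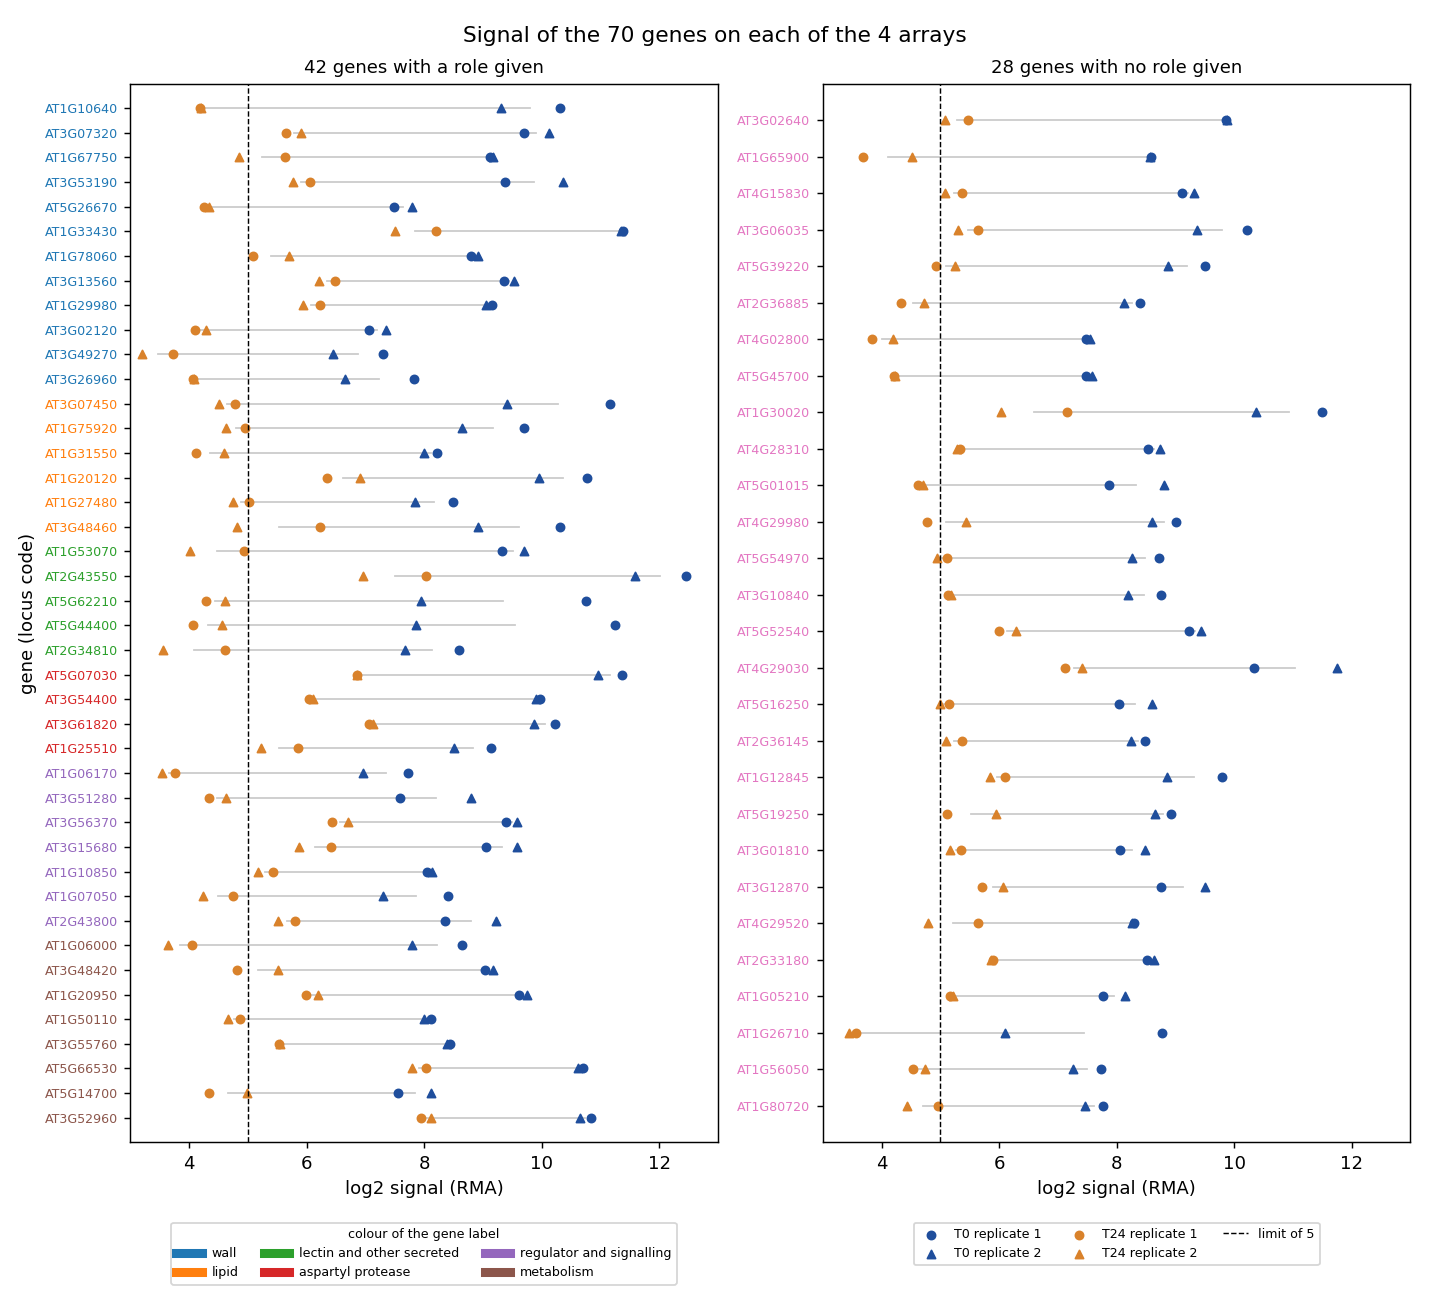
Log2 RMA signal (horizontal axis) of each of the 70 genes (vertical axis) on the T0 arrays (blue) and T24 arrays (orange), with circles for replicate 1 and triangles for replicate 2. Grey lines join the group means and label colours give the role, and by the rule every blue point lies at least 2.5 units to the right of both orange points of its gene.

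The wall group held 12 genes, with measured changes from -5.62 to -3.01. AT1G10640, of the polygalacturonases, which cut the pectin backbone, had a gap of 5.10. Its arrays read 10.31 and 9.31 at T0 and 4.18 and 4.21 at T24, a measured change of -5.62 ± 0.39 (SE). Both T24 arrays lay below the highest root gene, so the size of the change and its rank are approximate.

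A pair of pectate lyases, which also cleave pectin, kept more signal. AT1G67750 read 9.11 and 9.16 at T0 and 5.63 and 4.85 at T24 (14.9-fold lower). For AT3G53190 the T0 arrays gave 9.37 and 10.36 and the T24 arrays 6.05 and 5.76 (15.6-fold lower). AT5G26670, of the pectin acetylesterases, which remove acetyl groups from pectin, went from 7.48 and 7.79 to 4.26 and 4.34. Of these pectin genes, AT1G10640 and AT5G26670 ended with both T24 arrays under 5.

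A pair of beta-glucanase genes of the callose-degrading family were still above 5.5 on every T24 array. AT3G07320 read 9.69 and 10.13 at T0 and 5.66 and 5.91 at T24, a change of -4.13 ± 0.25 (SE). Its relative AT3G13560 changed by -3.10 ± 0.21, from 9.35 and 9.54 to 6.49 and 6.20. The beta-xylosidase-type gene AT1G78060, of a family that trims xylan side chains, went from 8.80 and 8.92 to 5.08 and 5.69. All 3 of these genes were slightly higher on T0 replicate 2.

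Genes for wall glycoproteins and their sugars ended at very different levels. AT1G33430, a galactosyltransferase for arabinogalactan sugars known to be needed for the pollen wall, read 11.39 and 11.35 at T0 and 8.21 and 7.50 at T24. It was 11.4-fold lower, with both T24 arrays over 7. AT3G49270, an extensin-like protein, read 7.31 and 6.44 at T0 and 3.73 and 3.20 at T24. That T24 level lay below the 3 root genes on both arrays. For AT3G26960, of a family of pollen allergens and extensins, the arrays gave 7.82 and 6.65 at T0 and 4.07 and 4.09 at T24, also below the highest root gene. The hydroxyproline-rich protein gene AT3G02120 changed by -3.01 ± 0.21, from 7.05 and 7.36 to 4.11 and 4.28, and AT1G29980, of a wall protein family, by -3.02 ± 0.20, from 9.16 and 9.05 to 6.22 and 5.94. In all, 5 of the 12 wall genes ended with both T24 arrays under 5.

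Other wall genes, found by words in their symbols and synonyms and not among the 70, did not move one way. Of 86 such genes 10 were called lower and 8 higher in limma, with a median change of -0.07, beside 6.84% of all probe sets called lower and 6.39% called higher. Both T24 arrays were under 5 for 35 of the 86. Some of these, such as XTH19 and EXPA7, were under 5 at T0 too and had little room to fall. The median is partly set by such genes. The cellulase family shows both directions. GH9C2 went from 9.71 and 8.49 to 5.62 and 5.37 (adjusted p = 0.0252 in limma). GH9A4 went from 5.01 and 4.67 to 8.56 and 8.90 (adjusted p = 0.0143 in limma). These cellulases were picked after their values were seen.

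Lipid genes numbered 6, with changes from -5.64 to -3.28. AT3G07450, of the lipid transfer fold, a small secreted protein held by disulfide bonds, had a gap of 4.63. It read 11.16 and 9.41 at T0 and 4.78 and 4.51 at T24, a 50.0-fold lower signal (change -5.64 ± 0.65, SE). T0 replicate 1 was 1.75 above T0 replicate 2, while the T24 arrays were close together and under 5.

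The GDSL lipases, secreted enzymes that cut ester bonds, gave 4 of the 6 lipid genes. AT1G75920, of a set of lipases first known from the pollen coat, read 9.70 and 8.65 at T0 and 4.94 and 4.64 at T24 (20.9-fold lower). AT1G31550 went from 8.23 and 7.99 to 4.11 and 4.59. Both ended under 5. The other two kept signal on at least 1 T24 array: AT1G20120 went from 10.77 and 9.95 to 6.34 and 6.90, and AT3G48460 from 10.31 and 8.92 to 6.23 and 4.82. For AT3G48460 replicate 1 was higher at both times, by 1.39 at T0 and 1.40 at T24. The phospholipase-like gene AT1G27480 changed by -3.28 ± 0.30 (SE), from 8.49 and 7.84 to 5.02 and 4.75. All 6 lipid genes were higher on T0 replicate 1 than on T0 replicate 2.

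The words for lipases, acyl enzymes and wax matched 5 other genes, with 1 called lower and 1 higher, beside 6.84% and 6.39% of all probe sets. Those for lipid transfer matched 0. The higher one, AT5G61590, was matched by the word wax in a synonym and went from 6.40 and 7.39 to 11.12 and 10.14 (adjusted p = 0.0275 in limma). SDT, a spermidine acyltransferase gene, was the lower one, from 6.69 and 6.16 to 4.78 and 4.40 (adjusted p = 0.0328 in limma).

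AT1G53070, a protein with a legume lectin domain, had a gap of 4.38. Its arrays read 9.32 and 9.71 at T0 and 4.94 and 4.02 at T24, a 32.8-fold lower signal (change -5.04 ± 0.39, SE). Both T24 arrays lay under 5. Among 5 other measured lectin genes, all named by symbol, 1 was called lower and 0 higher, beside 6.84% of all probe sets called lower. The lower one was the jacalin-type gene JAL23, which went from 8.22 and 6.76 to 3.67 and 3.51 (adjusted p = 0.0275 in limma). The remaining 4 had changes that did not pass. Of these, JAL22, JAL33 and JAL34 were under 5 on both T0 arrays and had little room to fall. Lectin genes known only by locus code could not be found by this search. The genes directly beside AT1G53070 changed little, AT1G53060 by -0.39 and AT1G53080 by -0.13, and neither was called.

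Grouped here with the lectin gene are 4 other genes for secreted-type proteins. AT2G43550, of the small cysteine-rich proteins that resemble defensins and trypsin inhibitors, read 12.45 and 11.59 at T0. At T24 it read 8.04 and 6.96 (22.9-fold lower), well above 5. AT5G62210, a protein of the embryo-specific type, stood at 10.75 and 7.95 at T0 and 4.29 and 4.60 at T24. Its T0 arrays differed by 2.80, and its T24 arrays were both under 5.

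The oxidases of the berberine bridge enzyme type gave a pair of genes. For AT5G44400 the T0 arrays read 11.25 and 7.86, the largest difference between T0 arrays among the 70 genes (3.40), and the T24 arrays 4.07 and 4.56. Taken from T0 replicate 2 alone its fall to T24 replicate 2 was -3.30, against a change between group means of -5.24. The genes directly beside AT5G44400 changed little, AT5G44390 by -0.10 and AT5G44410 by -0.14, and neither was called. AT2G34810 changed by -4.05 ± 0.52 (SE), from 8.59 and 7.68 to 4.61 and 3.55. With the lectin gene, 4 of these 5 genes ended with both T24 arrays under 5, all but AT2G43550.

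Aspartyl proteases, secreted or vacuolar enzymes of protein breakdown and processing, numbered 4, and none ended with a T24 array under 5. AT5G07030 read 11.37 and 10.96 at T0 and 6.87 and 6.86 at T24, a 19.8-fold lower signal (change -4.30 ± 0.23, SE). AT3G54400 went from 9.98 and 9.91 to 6.05 and 6.12. In AT3G61820 the signal went from 10.23 and 9.87 to 7.07 and 7.12, and in AT1G25510 from 9.14 and 8.50 to 5.86 and 5.22. The first 3 had nearly equal arrays at T24, within 0.08 of each other. Of 64 other genes matched by words for proteases and their inhibitors, 7 were called lower and 4 higher, with a median change of -0.20. Of all probe sets the shares were 6.84% and 6.39%. Many of the 64 carry scpl or UBP symbols, for carboxypeptidase-like and ubiquitin-specific proteases, so much of the set differs in kind from the aspartyl proteases. APA1, an aspartic protease gene in the set, went from 12.15 and 11.23 to 12.49 and 12.28 and was not called. Both T24 arrays were under 5 for 15 of the 64.

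Regulators and signalling genes numbered 7, with a median change of -3.18. AT1G06170, a basic helix-loop-helix transcription factor known from the tapetum, read 7.73 and 6.96 at T0 and 3.76 and 3.54 at T24, below the highest root gene on both arrays. AT3G51280, a tetratricopeptide repeat protein, went from 7.59 and 8.80 to 4.33 and 4.62. AT1G07050, with the CCT motif of several flowering and clock regulators, went from 8.40 and 7.31 to 4.75 and 4.24. These 3 ended with both T24 arrays under 5.

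The other regulators stayed above 5 at T24. The receptor kinases with leucine-rich repeats were AT3G56370, at 9.39 and 9.59 and then 6.44 and 6.70, and AT1G10850, at 8.05 and 8.14 and then 5.42 and 5.17. The zinc finger gene AT3G15680 changed by -3.18 ± 0.32, from 9.06 and 9.59 to 6.42 and 5.87. AT2G43800, a formin, which nucleates actin filaments, changed by -3.13 ± 0.36, from 8.36 and 9.23 to 5.81 and 5.51. Of the 7, only AT1G06170 and AT1G07050 were higher on T0 replicate 1.

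Metabolic genes numbered 8. AT1G06000, a flavonol rhamnosyltransferase that decorates flavonols with sugar, went from 8.65 and 7.79 to 4.04 and 3.64, which lies below the highest root gene on both arrays. AT3G48420, a chloroplast phosphatase, read 9.04 and 9.18 at T0 and 4.82 and 5.51 at T24. AT1G20950, the alpha subunit of the pyrophosphate-dependent phosphofructokinase of glycolysis, went from 9.62 and 9.76 to 5.99 and 6.20 (change -3.59 ± 0.19, SE). The T0 arrays of the latter 2 genes agreed within 0.15.

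AT3G55760, a protein of leaf starch granule turnover, had the tightest arrays of the metabolic genes, 8.43 and 8.38 at T0 and 5.52 and 5.55 at T24. AT1G50110, a branched-chain aminotransferase, went from 8.11 and 8.00 to 4.86 and 4.67. AT5G14700, like the cinnamoyl-CoA reductases of lignin synthesis, went from 7.55 and 8.12 to 4.35 and 4.98. With AT1G06000 these last 2 were the metabolic genes under 5 on both T24 arrays. In contrast AT5G66530, an epimerase-like protein for sugar phosphates, kept 8.04 and 7.80 after 10.71 and 10.61 at T0. AT3G52960, a plastid peroxiredoxin, which removes peroxides, kept 7.94 and 8.12 after 10.83 and 10.65 at T0.

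The 28 genes without a role here had a median change of -3.34, and 8 ended with both T24 arrays under 5. AT3G02640 had a gap of 4.39, with 9.86 and 9.88 at T0 and 5.47 and 5.08 at T24 (24.1-fold lower). AT1G65900 read 8.58 and 8.56 at T0 and 3.68 and 4.52 at T24 (22.2-fold lower). AT4G15830 went from 9.12 and 9.31 to 5.37 and 5.08. The T0 arrays of these 3 genes agreed within 0.20.

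AT3G06035 went from 10.21 and 9.37 to 5.64 and 5.31, and AT5G39220 from 9.50 and 8.87 to 4.93 and 5.25. AT4G29030 was over 7 on every array, with 10.34 and 11.74 at T0 and 7.12 and 7.41 at T24. AT1G30020 read 11.50 and 10.38 at T0 and 7.16 and 6.02 at T24, with replicate 1 higher by about the same amount at both times (1.13 and 1.14). AT1G26710 had T0 arrays of 8.77 and 6.10 and T24 arrays of 3.57 and 3.45. Its T24 values were under those of all 3 root genes, and its T0 arrays differed by 2.67.

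At the edge of the rule, the genes just inside were AT1G80720 with a gap of 2.504, AT1G56050 with 2.52, AT3G52960 with 2.53, AT1G26710 with 2.53 and AT1G05210 with 2.55. Just outside lay AT5G09300 with 2.4996, which the rule also names as left out, AT1G53035 with 2.48, AT3G03770 with 2.47, AT1G23205 with 2.44, AT5G62840 with 2.44 and AT5G27290 with 2.43. The edge therefore separates genes with nearly the same gap.

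Whether the signal ended near background was judged against several limits. Both T24 arrays were under 5 for 26 of the 70 genes (37.1%), 1 of them was under 5 for 9, and neither for 35. Among all locus code genes 41.9% had both T24 arrays under 5. Of the 5043 locus code genes with both T0 arrays over 6, a level all 70 genes passed, 90 (1.78%) had both T24 arrays under 5, and the 26 are among those 90. The rule asks for a large fall, so this share is tied to the choice of genes.

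Against measured genes, fewer reached the floor. The highest of the 3 root genes read 4.39 and 4.26 on the T24 arrays, and 8 of the 70 genes lay below it on both. At the other end, 12 genes had both T24 arrays over 6 and 5 had both over 7. These 5 were AT3G52960, AT5G66530, AT1G33430, AT4G29030 and AT3G61820. They kept between 7.31% and 15.3% of their T0 signal and ended far above the root genes. Probe sets differ in their own background, so a common limit is approximate, and RMA compresses changes that end near it.

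**Figure D2:**
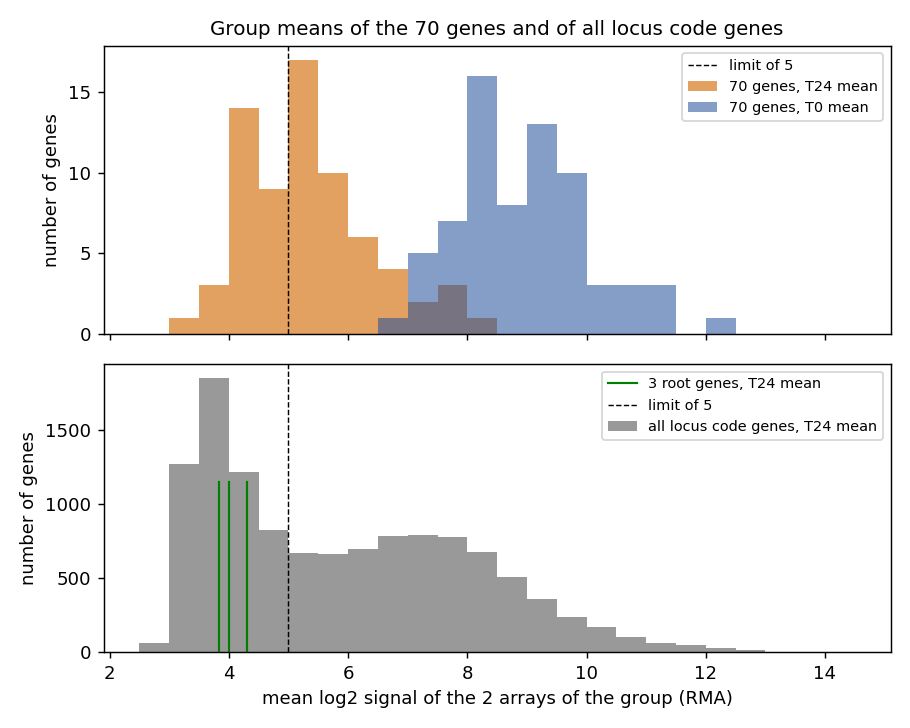
Number of genes (vertical axes) by mean log2 signal of a group's 2 arrays in steps of 0.5 (horizontal axis). The top panel has the 70 genes at T0 (blue) and T24 (orange, median 5.22), the bottom panel all 11799 locus code genes at T24 (grey) with the 3 root genes as green lines, and the T24 values of the 70 straddle the dashed limit of 5.

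The difference between the arrays of a group enters the rule, since a wide difference narrows the gap, and is given as a description only. The T0 arrays differed by more than 1 for 11 of the 70 genes (15.7%), against 8.79% of all locus code genes and 10.5% of the 5043 with both T0 arrays over 6, and replicate 1 was the higher array in 9 of the 11. They were AT5G44400, AT5G62210, AT1G26710, AT3G07450, AT3G48460, AT3G26960, AT1G30020, AT1G07050 and AT1G75920. Replicate 2 was the higher in AT4G29030 and AT3G51280. At T24 the arrays differed by more than 1 for 4 genes (5.71%), against 6.93% of locus code genes and 7.59% of the 5043. No test was made of these shares.

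By role, the direction of the T0 difference was not even. T0 replicate 1 was higher for 6 of 6 lipid genes (median difference 0.94), for 4 of 5 lectin and other secreted genes (0.91) and for 4 of 4 aspartyl proteases (0.39). It was higher for 5 of 12 wall genes (-0.08), 2 of 7 regulators (-0.19), 5 of 8 metabolic genes (0.07) and 15 of 28 genes without a role (0.03). Of all locus code genes 42.7% were higher on T0 replicate 1 (median difference -0.07), and of the 5043 it was 47.7% (-0.03). The roles were assigned with these values known, and the genes share the same 2 arrays, so the counts describe 1 pair of arrays.

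**Figure D3:**
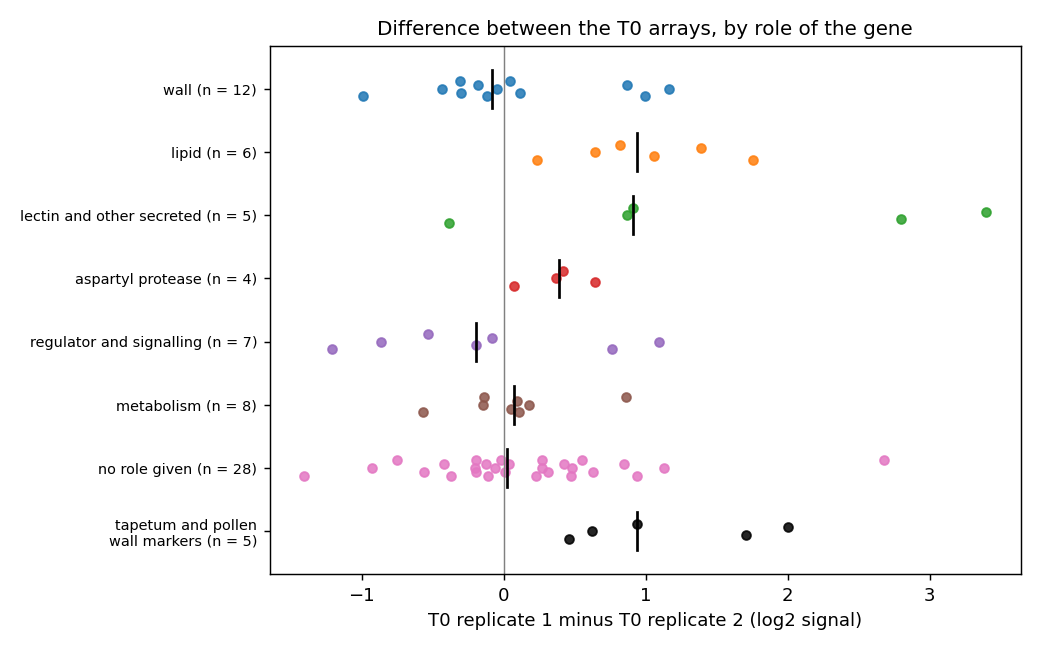
Difference between the T0 arrays (replicate 1 minus replicate 2, log2 signal, horizontal axis) for each of the 70 genes by role, and for the 5 measured tapetum and pollen wall markers; each point is a gene and black bars are medians. All lipid genes and all markers lie to the right of 0, with medians of 0.94 for both.

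Markers of the tapetum and pollen wall were read on the same arrays. Of 28 listed markers 5 were measured, and all 5 were higher on T0 replicate 1, with a median difference of 0.94. None is among the 70 genes. SHT and ATA27 did pass the gap, with 5.54 and 2.89, but carry symbols, so the rule could not take them. AMS, which also carries a symbol, missed the gap with -0.23. AT5G07230 and AT1G03390 are locus code genes and missed it with -0.48 and 1.52. All 5 were also higher on T24 replicate 1 (median 0.49). Between the groups 3 of the 5 were called lower and 0 higher in limma: SHT, ATA27 and AT1G03390, the last going from 6.29 and 5.67 to 4.15 and 3.99 (adjusted p = 0.0304). AMS, an early tapetum regulator, stayed at 6.15 and 5.69 and then 5.93 and 5.44. Summed over the 5, the log2 level was 13.75 and 12.12 at T0 and 10.85 and 8.59 at T24. SHT and AT1G03390 were under 5 on both T24 arrays.

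Late pollen markers went the other way between the groups. Of 12 listed, 5 were measured, and 4 were called higher and 0 lower at T24. Their summed log2 level was 11.77 and 10.79 at T0 and 13.87 and 14.06 at T24. Between the T0 arrays, replicate 1 was the higher for 4 of these 5 (median difference 0.41). The same held for 2 of 3 root genes (0.225) and 2 of 6 bud and carpel genes (-0.04). A higher T0 replicate 1 was thus not limited to the tapetum and pollen wall markers. The part of the tapetum, of anther stage or of the share of anther tissue in the fall of the 70 genes was not tested.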

How the data were processed

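The authors deposited log2 values of 22746 probe sets for 4 Affymetrix arrays. The submitters' processing notes name RMA, without a version. The log2 base was read from the values. No further scaling was applied. Gene names are those of the platform annotation, updated by gene identifier in the RefSeq table of TAIR10.1 (names and gene order only). 13513 probe sets had 1 gene, 503 several and 8730 none, and 13436 of the 13513 matched the table. Each gene took its probe set with the highest mean, and none of the 70 genes had another. Groups and replicate numbers came from the titles.

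T24 minus T0 was fitted on all probe sets with limma 3.58.1 (lmFit, eBayes) in R 4.3.3, two-sided, with Benjamini-Hochberg adjustment and calls under 0.05; each SE and adjusted p is from this fit. The fit was also run on simulated data with independent noise, where its median changes came close to the planted ones. Replicate differences shared between the groups were not simulated. Replicates are the 2 arrays of a group, and their number limits the precision; the spread behind each p-value is that between these arrays and may be technical.

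The 70 genes and all lists were chosen with earlier results of these data known. Values on each array are given for the genes with the widest gaps, for those of each role, for those highest at T24 and for those nearest the edge of the rule. Roles were to be read from product words. The tables hold none, so the words were searched in symbols and synonyms of all genes (86 wall, 64 protease, 5 lipase and acyl, 5 lectin, 0 lipid transfer matches outside the 70), and roles of the 70 were assigned by hand. Words were matched as letter strings, also inside longer words, so a class can hold genes of other kinds. Protein and promoter sequences were not used here. Alternatives were other scalings, variance models, filters, limits and leaving out each array.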

Additional observations from a re-analysis of the deposited data

How the results depend on the processing

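The 3010 calls over all probe sets came to 2764 to 3240 under the intensity trend, the robust fit, quantile scaling, median centring and a mean of at least 5. Median centring moved all changes by 0.16 and made 58.2% of calls higher against 48.3%. A replicate block gave 6528. The labels tie the numbers to no shared batch; with 2 pairs, the differences between replicates 1 and 2 had a correlation of 0.63 between T0 and T24 over probe sets. Leaving out 1 array left 0 calls each time (lowest 0, highest 0), with 4888 to 5942 at an unadjusted p under 0.05. The rule gave 70 genes, 66 with quantile scaling (64 shared), 57 with median centring (all among the 70), and 97 to 152 without 1 array, since fewer arrays must then be separated (139 without T0 replicate 1, 152 without T0 replicate 2, 117 without T24 replicate 1). A gap of at least 2 gave 162 genes and of at least 3 gave 37. The gaps of the 70 genes ran from 2.30 to 4.89 with median centring and from 2.38 to 5.26 with quantile scaling. In both scalings some of the 70 genes thus fell below the gap of 2.5 that the rule asks for. The genes were chosen for a wide gap on the same arrays, so gaps that stay wide after rescaling are no separate test. The 26 genes with both T24 arrays under 5 became 10 at a limit of 4.5, 39 at 5.5, 20 at each array's 35th percentile, 8 below the highest root gene, 22 with quantile scaling, and 32 or 29 on a single T24 array.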

Other observations

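By the same measure turned upward, 167 of the 11799 locus code genes had both T24 arrays at least 2.5 above both T0 arrays. Among the 1557 genes with a symbol, 32 (2.06%) had the downward gap, against 0.593% of the locus code genes. These shares were not tested.

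In the order of protein-coding genes, 72 measured genes lay next to one of the 70 without belonging to them, and 2 of these were called lower and 5 higher in limma, with a median change of -0.17. Of all measured genes 5.99% were called lower, against 2.78% of these neighbours, and of all probe sets 6.39% were called higher. The 2 called lower were AT3G01800, beside AT3G01810 (change -1.19, adjusted p = 0.0367 in limma), and AT5G26680, beside AT5G26670 (-1.57, adjusted p = 0.0464 in limma). The 5 called higher include AT3G07310, beside the beta-glucanase AT3G07320, which rose by 2.39 (adjusted p = 0.0155 in limma). They also include AT1G07040, beside AT1G07050, which rose by 3.05 (adjusted p = 0.0194 in limma). No 2 of the 70 genes were direct neighbours. The closest were AT1G29980 and AT1G30020, with 3 genes between them, and AT3G48420 and AT3G48460, with 4. By chromosome, the 70 were 24 of 3068 locus code genes on chromosome 1 (0.782%), 6 of 1938 on 2 (0.31%), 21 of 2420 on 3 (0.868%), 6 of 1699 on 4 (0.353%) and 13 of 2674 on 5 (0.486%), with no test made.

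Words for DNA and RNA binding matched 19 genes outside the 70, of which 6 were called higher and 2 lower. Words for photosynthesis and plastids matched 19, with 5 lower and 1 higher. Words for oxidoreductases matched 96, with 9 lower and 10 higher, those for transporters 25, with 2 lower and 0 higher, those for kinases and receptors 9, with 1 each way, and those for anther and pollen 3, with 0 called either way. Of all probe sets 6.84% were called lower and 6.39% higher. The words also matched inside longer words. The 25 transporter matches therefore include FDH, HCT and GSA1, which are no transporters. GSA1 is 1 of the 2 called lower, and the other is OCT5.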
